A study of Mus musculus with 12 samples.

Results

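Acetylation of histone H3 at lysine 23 (H3K23ac) was compared with trimethylation of lysine 4 (H3K4me3) in wild-type mouse lung endothelium. The 4 libraries compared were the 2 of H3K23ac and the 2 of H3K4me3 from mice labelled WT and negative for Cre. Regions were kept where at least 2 of these 4 libraries held 10 or more counts, which left 9263 of the 1192075 regions in the deposited table. The whole design has 12 libraries in 6 groups of 2, with the same marks and H3K27ac in WT and in CSE-KO mice (Cre-positive, lacking the cysteine-producing enzyme cystathionine gamma-lyase). The labels give lung endothelial cells as the cell type of all groups and name no strain, age, sex, treatment or promoter that drives Cre, nor whether replicates came from separate animals. The spread behind each p-value is therefore that of these libraries and may be technical only. Regions carry a list number and a running number without a position or a gene, so endothelial markers, the deleted gene and the sequence under a region were not analysed here.

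The 2 marks are written by different enzymes. H3K4me3 is laid down by the SET1 and MLL methyltransferase complexes, forms sharp peaks at the starts of active and poised genes, and is recognised by PHD-finger proteins of the transcription and acetylation machinery. H3K23ac is placed by acetyltransferases such as those of the KAT6 (MOZ and MORF) family and p300/CBP, marks active chromatin, and is read by some PHD-finger and bromodomain proteins. Because acetyl groups come from acetyl-CoA, histone acetylation can respond to nutrient supply, whereas the methyl groups of H3K4me3 come from S-adenosylmethionine. H3K27ac, the other mark in this series, is found at active promoters and enhancers.

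The libraries were made by ACT-seq, in which an antibody bound to Protein A and Tn5 transposase cuts adaptors into chromatin that carries the mark in permeabilized cells. The compared regions held 9.65% and 11.8% of the 1569853 and 1848702 counts of H3K23ac replicates 1 and 2. They held 38.4% and 37.5% of the 396441 and 563330 counts of H3K4me3 replicates 1 and 2. The H3K23ac libraries were thus deeper in total, while both marks had similar numbers of counts within the compared regions, from 151564 to 218434 per library. Levels below are counts per 1000000 (CPM) of the counts in these regions after TMM scaling, which aims to centre the bulk of the regions between libraries. It did not centre the H3K23ac replicates. The median of replicate 1 minus replicate 2, on log2(CPM + 1), was 1.44 for H3K23ac and 0 for H3K4me3. A fold or a direction between marks is relative to the TMM scaling. The median log2 fold change of H3K23ac over H3K4me3 across all compared regions was -0.43 with TMM and -2.24 when libraries were scaled to their total counts.

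Each region belongs to 1 of 12 lists, and the list number was read as a library number in the order of the samples. A list favours the library it is numbered for, so results are also given by list. The WT H3K23ac lists supplied 3479 of the compared regions and the WT H3K4me3 lists 1379. The CSE-KO lists, which were numbered for none of the 4 libraries, supplied 3065 regions for H3K23ac and 989 for H3K4me3. The H3K27ac lists, named by neither mark, supplied 351 regions, and 288 of these came from the replicate 1 list of CSE-KO H3K27ac, whose library had the highest total. In the 12 lists, between 42.4% and 76.3% of regions had no count in the library of the same number, and how reads over several overlapping regions were counted is not given in the sources used here. The counts are therefore only part of each library's signal at a place, and a mark absent from a region may have been counted under another list.

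Most regions that either mark filled in a single library were left out by the rule. Among the 4 libraries, 10 or more counts were found in 67214 regions for H3K23ac replicate 1, and 91.9% of these had such a count in no other library of the 4. The share was 89.3% of 34495 regions in H3K23ac replicate 2, 20.4% of 8216 in H3K4me3 replicate 1 and 42.3% of 12372 in H3K4me3 replicate 2. The comparison thus covers a small part of the H3K23ac signal and a larger part of the H3K4me3 signal. At the edge of the rule, 1031 regions had a second highest count of exactly 10, with a median highest count of 18, and 1144 regions just outside had a second highest count of 9, with a median highest count of 16.

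Shared regions were the most common kind among those kept, but few were filled in every library. The rule itself favours them, because a region filled in a single library of a mark was kept only where the other mark was filled. It left out 92584 regions filled in 1 H3K23ac library alone and 6910 filled in 1 H3K4me3 library alone. At least 1 library of each mark had 10 or more counts in 5448 regions (58.8%), and all 4 libraries did so in 871 (9.40%). With the minimum set instead to the CPM of total counts that 10 counts make in the shallowest library, 5082 regions were kept. Among these the shares were 29.4% and 2.93%, so that shared regions were no longer the majority. Both H3K4me3 libraries and neither H3K23ac library reached 10 counts in 2576 regions (27.8%). Both H3K23ac libraries and neither H3K4me3 library did so in 1239 (13.4%). Among regions filled in both H3K4me3 libraries and a single H3K23ac library, that library was replicate 1 in 1633 and replicate 2 in 574, although replicate 2 was the deeper. The H3K4me3 counts in the regions with H3K4me3 alone had medians of 15 and 20, and those in the regions of all 4 libraries had medians of 27 and 38. For H3K23ac the medians were 18 and 47 in the regions with H3K23ac alone, and 28 and 52 where all 4 libraries were filled. Regions with both marks in every library therefore had higher counts of each mark than regions with 1 mark alone.

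**Figure D1:**
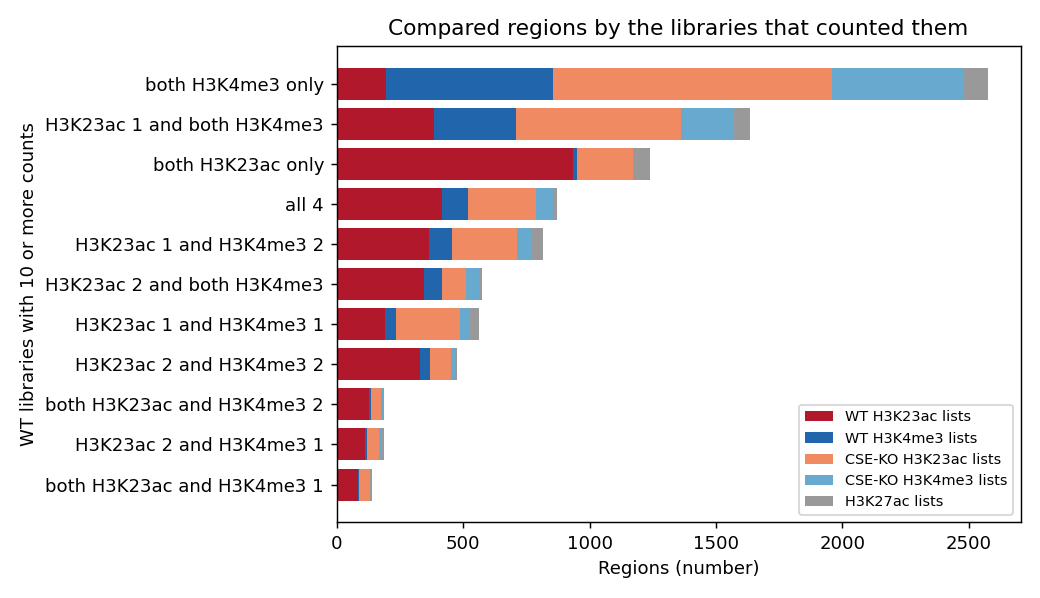
Number of compared regions (x axis) for each set of WT libraries with 10 or more counts (y axis; the digit after a mark is the replicate), coloured by the list the region comes from. The largest set, 2576 regions, was filled in both H3K4me3 libraries only, and 871 regions were filled in all 4.

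Among the compared regions, and with dominance requiring both libraries of a mark, H3K4me3-dominated regions outnumbered H3K23ac-dominated ones. A region was taken as dominated by a mark where both of its libraries had a higher CPM than both of the other mark and its mean CPM was at least 4 times the other's. By this rule 2620 regions (28.3%) were dominated by H3K4me3 and 1299 (14.0%) by H3K23ac, while 5344 (57.7%) were neither. Without the fold, both H3K4me3 libraries lay above both H3K23ac libraries in 3463 regions (37.4%), the reverse held in 1648 (17.8%), and the marks overlapped in 4152 (44.8%). Mean CPM values were within 2-fold of each other in 3208 regions (34.6%). With scaling to total counts the dominated regions became 4953 for H3K4me3 and 823 for H3K23ac, so the size of the excess depends on the scaling. The definition also favours the mark whose replicates differ less. A count in only 1 replicate occurred in 40.5% of regions for H3K23ac and 6.32% for H3K4me3. The rule had left out 92584 regions filled in 1 H3K23ac library alone and 6910 filled in 1 H3K4me3 library alone. The part of these limits in the excess was not tested.

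**Figure D2:**
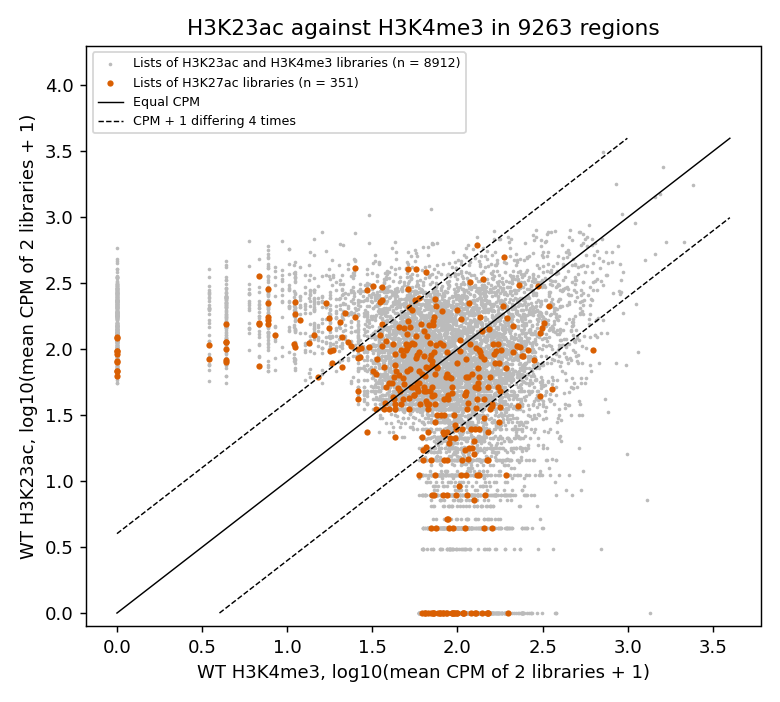
Mean CPM of the 2 WT H3K4me3 libraries (x axis) against that of the 2 WT H3K23ac libraries (y axis), both as log10(CPM + 1), with 1 point per region. Points from the 351 regions of the H3K27ac lists (orange) spread among the other regions (grey), and lines of points at 0 on either axis are regions without counts of that mark.

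The mark that led in a region varied with its list, but was not always the mark of that list. In the WT H3K23ac lists 2602 of 3479 regions had a positive log2 fold change of H3K23ac over H3K4me3 (median 1.03), and 1013 regions were dominated by H3K23ac. In the WT H3K4me3 lists 88.8% of 1379 regions had a negative one (median -2.13), and 728 were dominated by H3K4me3. These lists are numbered for the compared libraries themselves. In the CSE-KO H3K4me3 lists, numbered for other libraries, 87.8% of 989 regions were negative (median -2.28). The CSE-KO H3K23ac lists did not lean towards H3K23ac: 2223 of 3065 regions were negative, and 1087 were dominated by H3K4me3 against 208 by H3K23ac. Of these 3065, 1103 passed the rule through both H3K4me3 libraries alone and 221 through both H3K23ac libraries alone. Among the 5 kinds of list, only the WT H3K23ac lists had a positive median, and with scaling to total counts the median log2 ratio of mean CPM was negative there too (-0.60).

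Whether the marks differed at single regions was tested across all 9263 with edgeR's quasi-likelihood test on the 4 libraries. No region passed an adjusted p of 0.05 (0 regions, 0%), and the lowest adjusted p was 0.102, which 250 regions shared. At an unadjusted p under 0.05 there were 1918 regions (20.7%), 682 higher in H3K23ac (7.36%) and 1236 higher in H3K4me3 (13.3%). With total-count scaling that split was 406 and 2332. DESeq2 called 533 regions (5.75%), 416 higher in H3K23ac and 117 lower. The limma-voom test with weights per mark called 1129 (12.2%), 40 higher in H3K23ac and 1089 lower, and 155 regions were common to both, 29.1% of the former and 13.7% of the latter. With all 12 libraries sharing 1 spread, edgeR called 1321 (14.3%), 552 higher and 769 lower. The number and the leading direction of calls thus differed between these fits, which differ in several steps. Without H3K23ac replicate 1 edgeR called 6714 regions, and without H3K23ac replicate 2 it called 2932. The spread then came from the H3K4me3 pair alone, and the lone H3K23ac library is assumed to vary like that pair. Without either H3K4me3 library it called 0, and an unadjusted p under 0.05 was then found in 105 regions without replicate 1 and 47 without replicate 2.

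The spread between replicates was much larger for H3K23ac than for H3K4me3. Over the compared regions the biological coefficient of variation, the relative spread beyond counting noise, was 164% for H3K23ac and 41.4% for H3K4me3 when each mark was fitted alone, and 111% in the joint fit. The median absolute difference between replicates, on log2(CPM + 1), was 3.02 for H3K23ac and 0.63 for H3K4me3. A count in 1 replicate and none in the other occurred in 40.5% of regions for H3K23ac and 6.32% for H3K4me3. Chi-square per degree of freedom between replicates, near 1 for counting noise alone, was 28.6 over 100004 regions for H3K23ac and 4.05 over 20241 for H3K4me3, so neither pair was a library deposited again. In the 871 regions filled in all 4 libraries the coefficients were 62.4% and 28.1%. These regions were chosen for counts in every library, which lowers the spread for both marks.

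**Figure D3:**
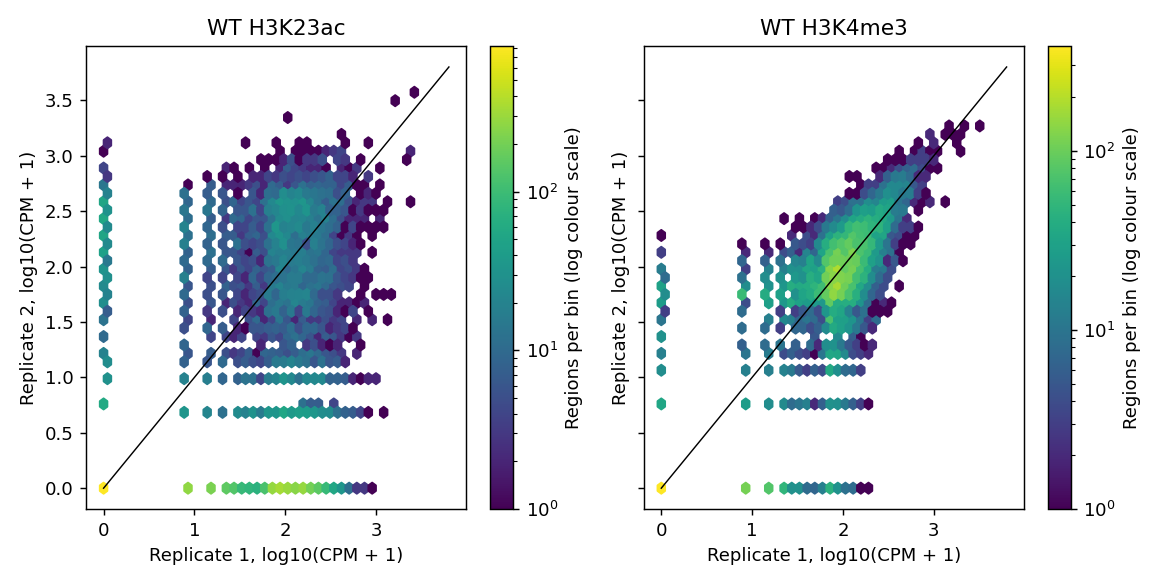
Replicate 1 (x axis) against replicate 2 (y axis) for WT H3K23ac (left) and WT H3K4me3 (right), as log10(CPM + 1), coloured by the number of regions per bin on a log scale, with the line of equal values. H3K4me3 replicates follow the line, while 40.5% of regions have an H3K23ac count in only 1 replicate and lie along the axes.

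Above 50 CPM the H3K23ac spread narrowed with level but stayed wider than that of H3K4me3. At 50 to 100 CPM the median absolute log2 difference between replicates was 6.68 for H3K23ac (2186 regions) and 0.56 for H3K4me3 (3401 regions). At 100 to 200 CPM it was 2.55 for H3K23ac (2001 regions) and 0.58 for H3K4me3 (2647 regions). At 400 CPM or more it was 1.26 for H3K23ac (234 regions) and 0.43 for H3K4me3 (225 regions). The H3K23ac replicates also differed in how often they were empty. Among the 5654 regions with 10 or more counts in both H3K4me3 libraries, H3K23ac replicate 2 had no count in 51.5%, 1 to 9 counts in 22.9% and 10 or more in 25.6%, where its median count was 48. Replicate 1 had no count in 20.3% of the same regions, 1 to 9 in 35.4% and 10 or more in 44.3%, with a median of 22. Of the 2393 compared regions in the list of H3K23ac replicate 2, 61.3% had 10 or more counts in replicate 1. For the list of replicate 1 the share in replicate 2 was 24.6% of 1086 compared regions. For H3K4me3 the shares of the lists of replicates 1 and 2 were 85.8% and 86.4%. The rule raises these shares, because regions filled in 1 library alone were left out.

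H3K23ac was found more often where H3K4me3 was higher. The 5654 regions filled in both H3K4me3 libraries were split into 4 groups of equal size by mean H3K4me3 CPM, a choice that does not use H3K23ac. In the lowest group, with a median of 76.0 H3K4me3 CPM, 30.6% of 1414 regions had 10 or more counts in H3K23ac replicate 1 and 16.8% in replicate 2. In the highest group, with a median of 246 CPM, the shares were 66.2% and 41.7% of 1414 regions. Both replicates thus gained regions with the H3K4me3 level, at different overall shares. The CSE-KO H3K23ac libraries, whose counts the rule did not use, had 10 or more counts in 32.0% and 35.3% of the lowest group and in 68.0% and 71.6% of the highest. Of the 5654 regions, 2118 came from the lists numbered for those libraries, where the shares in the lowest group were 45.7% and 53.8%. Grouped anew within the 2504 regions of the WT lists of both marks, the CSE-KO shares were 24.4% and 24.8% in the lowest group and 63.9% and 66.9% in the highest. Even in the highest group 343 regions (24.3%) reached 10 counts in neither WT H3K23ac library. In the reverse direction, both H3K4me3 libraries were filled in 26.4% of the lowest and 52.0% of the highest such group of the 2438 regions filled in both H3K23ac libraries. A larger or more open region can raise the counts of both marks, and region length is not part of the table, so its part in this relation was not tested.

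**Figure D4:**
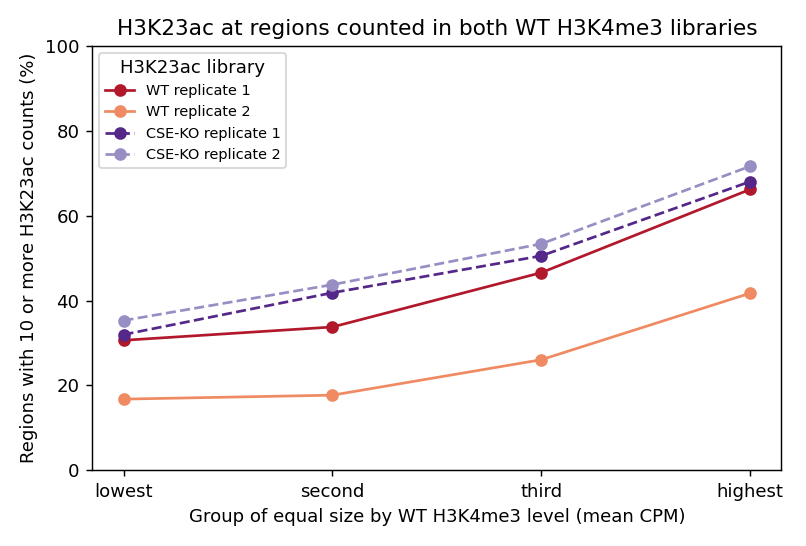
Share of regions with 10 or more H3K23ac counts (y axis, %) by group of WT H3K4me3 level (x axis, lowest to highest), for regions filled in both WT H3K4me3 libraries, with 1 line per H3K23ac library. All 4 lines rise, and WT replicate 2 is the lowest, from 16.8% to 41.7%.

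The 351 regions of the H3K27ac lists, which neither mark's libraries had named, gave both kinds of region. H3K4me3 dominated 90 of them (25.6%, against 28.3% of all compared regions) and H3K23ac 60 (17.1%, against 14.0%). Both marks were found in 193 (55.0%) and all 4 libraries were filled in 15 (4.27%). The median log2 fold change of H3K23ac over H3K4me3 was -0.34, beside -0.43 over all compared regions. Its direction rested on single libraries, since it was 0.25 without H3K23ac replicate 2 and -4.09 without replicate 1. It was also positive, 0.18, when only the CSE-KO and H3K27ac lists were fitted. In the edgeR test 0 of the 351 passed, while 63 (17.9%, against 20.7% of all compared regions) had an unadjusted p under 0.05, 23 higher in H3K23ac and 40 higher in H3K4me3. DESeq2 called 7 of 351, where it called 5.75% of all compared regions, and limma-voom 36, where it called 12.2%. Without H3K23ac replicate 1 edgeR called 233 of 351 (72.5% of all compared regions) and without replicate 2 it called 104 (31.7%). In these fits the shares called in the H3K27ac lists were thus near or below those over all regions. They were higher with library sizes from the H3K27ac lists, at 32 of 351 against 7.17% of all. The same held with edgeR's filterByExpr as the filter, at 62 of 654 against 7.57% of 15080. The H3K23ac spread was wide here too, with a coefficient of variation of 145% against 49.5% for H3K4me3.

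The strongest regions of the H3K27ac lists showed the contrast in single counts. The region with the most H3K23ac, from the list of CSE-KO H3K27ac replicate 1, had 89 and 153 H3K23ac counts and 26 and 17 H3K4me3 counts. These are 618 ± 19.6 and 130 ± 63.8 CPM (SD, n = 2 each). Both H3K23ac libraries lay above both H3K4me3 libraries, and the CSE-KO libraries had the same order, with 164 and 51 H3K23ac counts and 7 and 17 H3K4me3 counts. The region with the most H3K4me3, from the list of WT H3K27ac replicate 2, had 81 and 142 H3K4me3 counts and 26 and 5 H3K23ac counts, or 626 ± 115 and 98.6 ± 110 CPM (SD, n = 2 each). Its CSE-KO H3K23ac libraries differed widely, with 135 and 13 counts, beside 119 and 84 for H3K4me3.

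Regions with both marks at high level were led by 2 that exceeded all others in their lowest CPM over the 4 libraries. The first, from the list of CSE-KO H3K23ac replicate 1, had 244 and 761 H3K23ac counts and 200 and 381 H3K4me3 counts, or 2400 ± 1051 and 1622 ± 390 CPM (SD, n = 2 per mark). The fold of H3K23ac over H3K4me3 was 0.57 on the log2 scale (SE 0.53, edgeR adjusted p = 0.695). The second, from the list of WT H3K23ac replicate 2, had 339 and 291 H3K23ac counts and 435 and 381 H3K4me3 counts, and the fold was -0.46 on the log2 scale (SE 0.53, edgeR adjusted p = 0.796). In both regions the libraries of the marks overlapped in CPM. The region with the most H3K23ac of all, also from the list of WT H3K23ac replicate 2, had 374 and 899 H3K23ac counts and 115 and 132 H3K4me3 counts, or 3126 ± 830 and 716 ± 82.2 CPM (SD, n = 2 each). Both H3K23ac libraries lay above both of H3K4me3, by 2.13 on the log2 scale (SE 0.50), and the test was not passed (edgeR adjusted p = 0.108).

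Regions with 1 mark and none of the other ranked first in the edgeR test. The region peak11_14836, of the CSE-KO H3K4me3 replicate 1 list, had 191 and 284 H3K4me3 counts and no H3K23ac count, or 1350 ± 91.5 CPM of H3K4me3 (SD, n = 2). With 3 counts over both H3K23ac libraries as the floor, H3K4me3 was at least 175-fold higher (edgeR adjusted p = 0.102), and DESeq2 gave an adjusted p of 0.00497. Its CSE-KO H3K23ac libraries held 91 and 81 counts. The other regions of lowest p lay at the edge of the rule. The regions peak7_8777 and peak8_25542, from the lists of CSE-KO H3K23ac replicates 1 and 2, each had 10 and 10 H3K23ac counts and no H3K4me3 count. H3K23ac was at least 6.36-fold higher there, with the floor taken over both H3K4me3 libraries (edgeR adjusted p = 0.102). The region peak5_22546, of the WT H3K4me3 replicate 1 list, had 10 and 10 H3K4me3 counts and no H3K23ac count, so that H3K4me3 was at least 7.60-fold higher (edgeR adjusted p = 0.102). It is the first in the table among 10 regions with these counts and the same p. Floors account for counting error alone, and not for the spread between H3K23ac replicates. Whether PCR copies of a molecule were removed is not given, and reads of the absent mark may have been counted under another list.

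The other 8 libraries, whose counts the rule did not use although their lists supplied 3065, 989 and 351 of the regions, repeated the H3K4me3 side of the contrast more often than the H3K23ac side. Of the 2576 regions filled in both WT H3K4me3 libraries only, 72.4% had 10 or more counts in both CSE-KO H3K4me3 libraries, against 57.8% of all compared regions. Of the 1239 regions filled in both WT H3K23ac libraries only, 3.95% did so. Presence and absence of H3K4me3 thus carried over to other libraries of that mark. For H3K23ac, both CSE-KO libraries were filled in 23.6% of the regions with H3K23ac alone in WT, 17.1% of those with H3K4me3 alone, and 66.5% of the 871 regions of all 4 libraries, against 2502 of all 9263. The comparison of regions with H3K23ac alone with all regions differed by list. In the CSE-KO H3K23ac lists both CSE-KO H3K23ac libraries were filled in 47.1% of 221 regions with H3K23ac alone in WT, against 40.8% of all 3065 there. In the H3K27ac lists the shares were 31.7% of 63 and 24.5% of 351, and in the WT lists of both marks 17.6% of 949 and 20.3% of 4858. Whether the difference between marks changed with genotype was not tested here.

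Tested over the same regions in the CSE-KO libraries, the comparison of marks gave 0 calls by edgeR (0%), 0 by limma-voom, 222 by DESeq2 (2.40%) and 3 by edgeR on all 12 libraries (0.0324%). By edgeR 2185 regions (23.6%) had an unadjusted p under 0.05, 482 higher in H3K23ac (5.20%) and 1703 higher in H3K4me3 (18.4%). With total-count scaling the unadjusted split was 101 and 3156. Of the 2620 regions dominated by H3K4me3 in WT, 54.5% had both CSE-KO H3K4me3 libraries above both CSE-KO H3K23ac libraries, against 40.2% of all compared regions, and 5.04% had the reverse. Of the 1299 dominated by H3K23ac in WT, 35.6% had both CSE-KO H3K23ac libraries above, against 15.0% of all compared regions, and 9.70% had the reverse. The order of the marks in WT was thus more often kept than reversed in CSE-KO, with overlapping libraries in 40.4% and 54.7%. In the regions of the H3K27ac lists the kept shares were 66 of 90 (73.3%) for H3K4me3 and 25 of 60 (41.7%) for H3K23ac. Over all 351 regions of these lists the same orders were found in 42.2% and 17.1%. Without a CSE-KO H3K23ac library edgeR called 4947 (replicate 1 left out) and 5473 (replicate 2), and without a CSE-KO H3K4me3 library 1 and 7.

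H3K27ac was higher where H3K23ac was present than where H3K4me3 stood alone. In WT H3K27ac replicates 1 and 2 the median level was 118 and 129 CPM over the regions with H3K23ac alone, and 59.2 and 55.2 CPM over those with H3K4me3 alone. In CSE-KO H3K27ac replicates 1 and 2 the medians were 124 and 115 CPM against 55.6 and 57.7 CPM. All 4 H3K27ac libraries thus had the same order, which no library scaling can change, since each value pair comes from 1 library. Regions of all 4 libraries, with both marks, had medians of 118 and 129 CPM in WT and 136 and 115 CPM in CSE-KO, close to those with H3K23ac alone. The order held within the H3K27ac lists, at 158 and 258 CPM for 63 regions with H3K23ac alone and 118 and 110 CPM for 95 regions with H3K4me3 alone in WT. It also held over the pooled WT lists of the compared marks, at 98.6 and 110 CPM against 39.5 and 36.8 CPM. There the list was not held constant. H3K23ac lists supplied 934 of the 949 regions with H3K23ac alone, and H3K4me3 lists 663 of the 857 with H3K4me3 alone. Region length is not part of the table, and its part in this difference was not tested. The counts behind these medians were small, 6 and 7 per region for H3K23ac alone and 3 and 3 for H3K4me3 alone in the WT libraries, and quartiles over regions overlapped. No test was made, since regions of 1 library are not replicates.

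**Figure D5:**
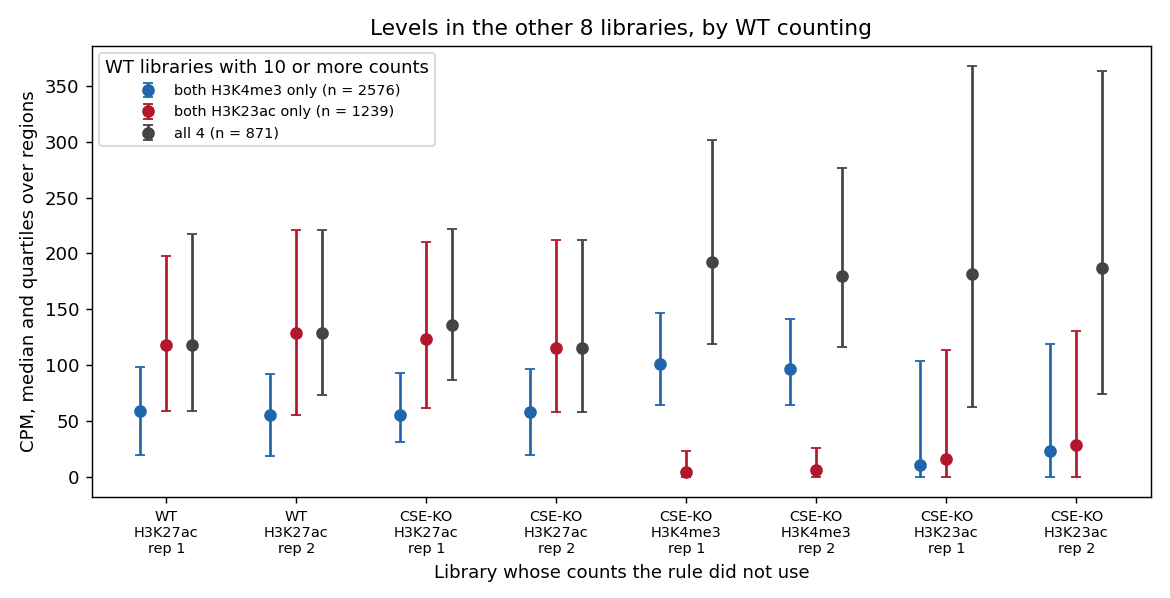
CPM in the 8 libraries whose counts the rule did not use (x axis), as median and quartiles over regions (points and bars, y axis), for regions filled in WT by both H3K4me3 libraries only (blue), both H3K23ac libraries only (red) or all 4 (grey). In the 4 H3K27ac libraries the red medians, 115 to 129, lie above the blue ones, 55.2 to 59.2, while in the CSE-KO H3K4me3 libraries the red medians are near 0.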

How the data were processed

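Raw read counts, as whole numbers, were deposited for each region in each library. Tools named per the submitters' processing notes include ChIPseeker 1.38.0, Subread, R 4.3.3 and edgeR 4.0.16, beside the genome builds mm10 and GRCm39. Which aligner and peak caller were used, and whether duplicates were removed, is not given in the sources used here. Columns were matched to samples by the library codes in the labels.

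Regions with 10 or more counts in at least 2 of the 4 WT libraries were tested two-sided in edgeR 4.0.16 (TMM factors, glmQLFit, then glmQLFTest, Benjamini-Hochberg over all 9263, threshold 0.05) in R 4.3.3, with folds as H3K23ac over H3K4me3. DESeq2 1.42.0 and limma 3.58.1 served as alternatives, and the edgeR test was tested on simulated counts. CPM values were scaled with TMM among the 4 WT libraries, the 4 CSE-KO libraries of these marks, and the 4 H3K27ac libraries separately. Standard errors are the fold divided by the square root of the F value. Python 3.11.15 with pandas 2.3.3, numpy 2.4.6, matplotlib 3.10.9 and scipy 1.17.1 made the summaries. With 2 libraries a group, an exact two-sided permutation test cannot go below 0.333, and none was run.

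The regions, rules and lists were chosen with earlier results of these data known. Named regions are the 2 of lowest p in each direction (ties by mean CPM, then table order). The 2 shared regions with the highest smallest CPM and the strongest of a list are described by their list.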

Additional observations from a re-analysis of the deposited data

How the results depend on the processing

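The count of regions called between marks in WT, 0 by the main edgeR fit, stayed at 0 with DESeq2 size factors, total counts or a minimum log2 fold change of 1 (2049, 2738 and 1796 regions at an unadjusted p under 0.05). It was 664 (7.17%) with library sizes from the H3K27ac lists, 533 with the DESeq2 Wald test, 1129 with limma-voom and 1321 with all 12 libraries. These fits tested the same 9263 regions. Over other sets it was 16 of 269813 (0.00593%) without a filter and 1142 of 15080 (7.57%) with filterByExpr. For regions of the H3K27ac lists, also 0 in the main fit, these 6 fits gave 32, 7, 36, 47, 0 and 62, in the order named. In CSE-KO, 0 became 306 of 258037 (0.119%) without a filter. Over the 9263 regions it became 222 with DESeq2 and 3 with all 12 libraries. With the replicate number as a block edgeR called 2 regions in WT, 0 in the H3K27ac lists and 57 in CSE-KO. Deviations of same-numbered libraries of the 2 marks correlated at 0.0217 in WT and 0.0167 in CSE-KO. Whether such libraries share a source is not given in the labels, and with the wide H3K23ac spread these values cannot tell. Leaving out each library in turn gave 0 to 6714 calls in WT, 0 to 233 in the H3K27ac lists and 1 to 5473 in CSE-KO, with the high values where an H3K23ac library was left out. Without the WT lists of both marks, a choice made after seeing the data, edgeR called 305 of 4405 regions (6.92%). In that fit 19 of the 351 regions of the H3K27ac lists were called. The H3K27ac lists fitted alone gave 0 (78 at an unadjusted p under 0.05).

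The shared share of 58.8% was 61.1% of the 19110 regions kept at 5 counts and 56.7% of the 3433 kept at 20 counts. It was 55.0% of the 351 regions in the H3K27ac lists. When 10 counts in the shallowest library, as CPM of total counts, set the minimum, it was 29.4% of 5082 regions. The share in all 4 libraries was 10.05%, 4.27% and 2.93% at 20 counts, in the H3K27ac lists and at that CPM. The coefficient of variation of H3K23ac moved to 145% in the H3K27ac lists and 62.4% in regions of all 4 libraries, and that of H3K4me3 to 49.5% and 28.1%. With total counts, a scaling added later for these classes, 8.88% of regions were H3K23ac-dominated and 53.5% H3K4me3-dominated, and with library sizes from the H3K27ac lists 14.9% and 31.0%. The log2 fold change of the shared region from the list of CSE-KO H3K23ac replicate 1 turned to -1.06 with total counts and -0.48 without a filter. The cause of these changes was not tested.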

Other observations

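Compared regions lay next to each other in running number more often than their share of the table. What the running number orders by is not given in the sources used here. Of the 9263 compared regions, 724 (7.82%) were followed in their list by another compared region, while 0.777% of all next regions were compared ones. In the WT H3K23ac lists the share was 10.5% of 3479, where 1.61% of next regions were compared ones. In the WT H3K4me3 lists it was 5.66% of 1379, against 1.37%. In the H3K27ac lists it was 0.570% of 351, only 2 regions, against 0.0618%. Among neighbouring pairs, both regions had H3K4me3 alone in 68 and H3K23ac alone in 70, while 6 pairs held 1 region of each kind.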
